A study of Homo sapiens with 15 samples.

Results

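Serum starvation was profiled in A375, an established human melanoma line that carries an activated BRAF kinase, with 3 libraries of cells in 10% fetal bovine serum (FBS) and 3 libraries of cells in 0.1% FBS, both cultured for 48 hours. These were 6 of the 15 libraries of the series. The other 9 hold A375 cells with a control vector, with MKL1 or with a constitutively active form of MKL1 (caMKL1), each overexpressed for 48 hours. MKL1 is an actin-regulated coactivator of the factor SRF. The labels name no genotype, agent or selection that would separate the starved cells from the cells in full serum apart from the serum level, and they do not say whether replicates were separate cultures, so p-values measure only the spread between these libraries. All results come from 1 cell line and 1 time point.

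Serum brings growth factors, hormones, lysophosphatidic acid, lipoproteins, iron-loaded transferrin, selenium and retinol to cultured cells. Cells that lose it lower biosynthesis, divide less and turn to recycling and uptake of nutrients. Much of that programme runs through kinase cascades from growth factor receptors, through nuclear receptors that bind small lipophilic ligands, and through translation and RNA stability controls that sense iron and selenium. The cholesterol, mitosis and p53 genes are not treated as groups here, although some genes that also belong to them, p53 targets included, appear in other groups. The account turns to signalling, transcription factors, secreted proteins, transporters and biosynthesis.

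Polyadenylated RNA was sequenced to between 13937251 and 17178725 counts a library. Of 20332 genes in the table, 13307 had enough counts to test. Levels are CPM, the counts of a gene scaled to a common library total with TMM factors, and folds are log2 fold changes of 0.1% against 10% FBS from edgeR, so that a positive value means a higher level in 0.1% FBS. The figure after ± is the SD over 3 libraries for a level and the SE for a log2 fold change. A gene is called higher or lower where the Benjamini-Hochberg adjusted p of edgeR's quasi-likelihood test is under 0.05. By that rule 4150 genes (31.2%) were higher and 4183 (31.4%) lower, 62.6% in all, and every count of a gene group below is to be read against these shares. Changes of at least 2-fold were found for 998 genes (7.5%), 632 upward (4.75%) and 366 downward (2.75%), and 852 (6.4%) and 544 (4.09%) passed a test against a change of 1.5-fold. The groups did not overlap in CPM for 8928 genes (67.1%), which is the background wherever groups are said not to overlap. The first principal component, which held 84.0% of the variance, separated the groups.

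The melanoma identity of the cells was checked with lineage markers. SOX10, a factor of the neural crest lineage, had 558 ± 53 CPM in 10% FBS and 428 ± 17.9 CPM in 0.1% FBS, and MITF, the melanocyte master factor, had 29.7 ± 1.74 CPM in 10% FBS and 50.7 ± 2.16 CPM in 0.1% FBS. S100B, another marker of the lineage, fell from 33 ± 2.08 to 14 ± 0.901 CPM. The pigment genes PMEL and MLANA were low in both groups. PMEL had 0.731 ± 0.115 CPM in 10% FBS and 0.817 ± 0.0633 CPM in 0.1% FBS and did not pass. MLANA had 0.303 ± 0.175 CPM in 10% FBS and 0.916 ± 0.195 CPM in 0.1% FBS and was called higher, with a log2 fold change of 1.55. TYR, TYRP1 and DCT were too low to test, so the defining pigment cell markers are at or near 0. Among markers of other cell types CDH1, EPCAM and CD3E were near 0. CLDN4 had 19 ± 0.389 CPM in 10% FBS and 21 ± 1.45 CPM in 0.1% FBS, with overlapping groups, and the other tested epithelial marker, KRT14, fell from 2.95 ± 0.836 to 0.559 ± 0.196 CPM. Both tested leukocyte markers were called higher: LYZ had 13.1 ± 2.86 CPM in 10% FBS and 16.3 ± 0.324 CPM in 0.1% FBS, with overlapping groups, and PTPRC rose from 0.425 ± 0.154 to 1.04 ± 0.173 CPM. Among 5 tested fibroblast markers COL1A1 fell from 6.5 ± 0.755 to 2.69 ± 0.343 CPM and DCN from 0.934 ± 0.134 to 0.163 ± 0.0844 CPM, LUM rose from 9.82 ± 0.397 to 12 ± 0.997 CPM, and PDGFRB and COL1A2 did not pass. LUM did not pass with DESeq2, with the length and GC offsets described below, or without replicate 1 or 3 of 10% FBS or replicate 1 or 2 of 0.1% FBS (log2 fold changes of 0.16 to 0.29, against 0.29 ± 0.11). The part of these markers in the results was not tested. Genes encoded by mitochondrial DNA held 5.53% to 6.09% of the counts in 10% FBS and 6.11% to 6.42% in 0.1% FBS. In bulk libraries, fewer cells of a type and less RNA per cell cannot be told apart.

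The size of the change varied with how highly a gene was expressed. Tested genes were divided into 5 equal bins by mean log2 CPM. In the lowest bin the median absolute log2 fold change was 0.48, the median SE was 0.246, 41.1% of the genes were called, and 328 genes rose and 195 fell by at least 2-fold. In the highest bin the median absolute change was 0.25 and the median SE 0.0482, 76.6% of the genes were called, and 44 rose and 29 fell by at least 2-fold. The bins in between followed the same order for the share called (57.6%, 65.3% and 72.4%). Direction also varied with level: in the lowest bin 24.3% of the genes were higher and 16.9% lower, and in the highest bin 33.1% were higher and 43.5% lower. The bins use the mean over both groups and only genes that passed the count filter. A gene near 0 in either group is thus tested only through its level in the other. With no filter the lowest bin had a median absolute change of 1.35 and 4.13% of its genes called. The part of the filter and of the SE in this pattern was not tested.

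**Figure D1:**
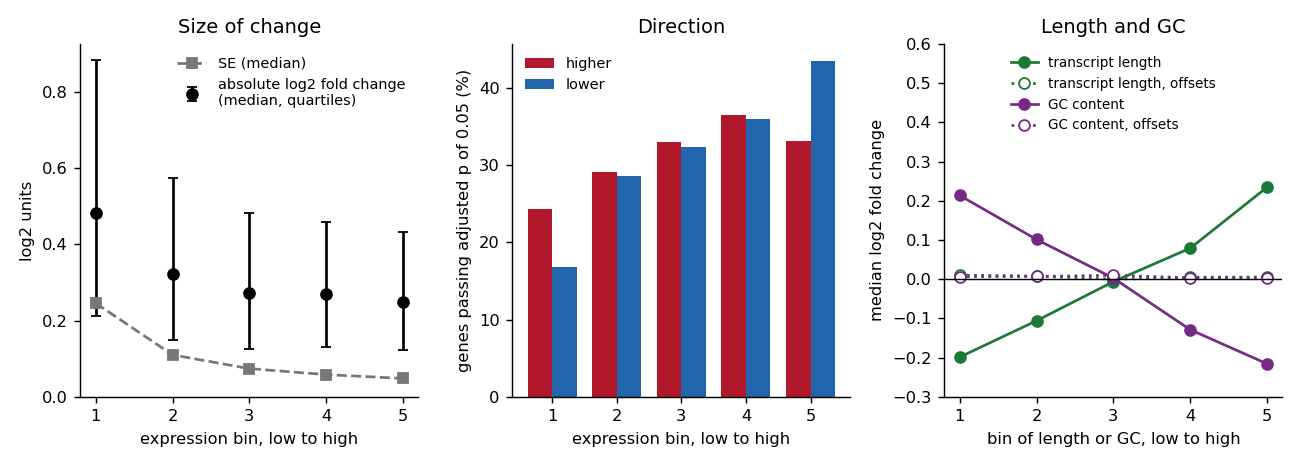
Left, absolute log2 fold change (median and quartiles) and SE (median) in 5 bins of genes from low to high mean log2 CPM. Middle, share of genes higher or lower in 0.1% FBS in each bin. Right, median log2 fold change in 5 bins of transcript length and of GC content, without (filled) and with (open) offsets for both. The median absolute change falls from 0.48 to 0.25 from the lowest to the highest bin, and the median change runs from -0.20 in the shortest to 0.23 in the longest transcripts.

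Transcript length and GC content moved with the change as well. Among the shortest of 5 bins of transcripts (192 to 2193 bases) 13.2% were higher and 47.4% lower, and among the longest (6032 to 34526 bases) 54.6% were higher and 16.1% lower. For GC content the lowest of 5 bins had 51.3% higher and 16.1% lower, and the highest 13.3% and 46.9%. All 3 starved libraries showed this: their median deviation from the 10% FBS mean was -0.201 to -0.174 log2 units for the shortest and 0.221 to 0.227 for the longest transcripts, whereas the 10% FBS libraries lay between -0.0532 and 0.0363 in these bins. For GC content the starved libraries stood at 0.197 to 0.205 in the lowest bin and -0.229 to -0.178 in the highest. The 10% FBS libraries also differed there, from -0.0775 to 0.0668 in the lowest bin and from -0.103 to 0.102 in the highest. Whether this length and GC pattern comes from the cells or from the libraries was not tested. Where a fit with offsets for length and GC moves a group's count by more than 1.5 times, that count is given beside it.

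Examples from the 2 genes that rose and the 2 that fell most in each bin give a sense of the range. ALPP, placental alkaline phosphatase on chromosome 2, had 1.88, 1.56 and 1.73 CPM in 10% FBS and no count in any starved library, in which 3 counts are worth 0.18 to 0.215 CPM. In the second bin PRUNE2, a protein with a BCH domain, had 3.17, 3.43 and 2.24 CPM in 10% FBS and 44.2, 50.1 and 43.8 CPM in 0.1% FBS, and ITGA10, an integrin subunit that binds collagen, had 2.58, 2.7 and 3.46 CPM in 10% FBS and 41, 44.6 and 40.9 CPM in 0.1% FBS. KRT80, a type II keratin, went the other way with 43.4, 51 and 41.2 CPM in 10% FBS and 2.37, 2.46 and 1.64 CPM in 0.1% FBS. The groups did not overlap for any of these genes. In the fourth bin UNC13A, which primes vesicles for release, rose by 3.04 ± 0.054, from 21.6 ± 0.964 to 178 ± 0.967 CPM, and THBS1, the matrix glycoprotein thrombospondin, fell, with a log2 fold change of -3.79 ± 0.072, from 280.1 ± 20.6 to 20.2 ± 1.76 CPM. In the third bin PCSK1, a protease that cleaves prohormones, rose (2.63 ± 0.081), second to ATP6V0A4, and WNK4, a kinase that regulates ion transport, fell (-2.49 ± 0.085), second to ID1. In the highest bin SERPINA3 fell most (-2.42 ± 0.048), followed by COL5A2, a fibrillar collagen chain (-1.69 ± 0.045). Beside the genes for which an overlap is given where they are described, ALPP, WNK4, DBP, NR4A1, RARA, MT1X, NQO1, SLC1A5, ATP6V0C and LYZ also share 10% or more of their exonic bases with another annotated gene, whose reads may not be told apart from theirs.

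Genes of cyclic AMP signalling were mostly higher. Cyclic AMP activates protein kinase A, which phosphorylates CREB and its relatives, and phosphodiesterases break the messenger down. Of 46 tested members 27 were higher and 5 lower (median log2 fold change 0.33, against -0.0042 over all genes). Among CREB-family factors and their known target genes, 13 of 20 were higher and 1 lower, RGS2 (-0.64 ± 0.069). The list members SIK1 (0.31 ± 0.14) and PER1 (0.06 ± 0.087) did not pass. RASD1, a small GTPase at chr17:17494437-17496395 that dampens G-protein signalling, had 0.117, 0.18 and 0.256 CPM in 10% FBS and 7.18, 7.19 and 5.84 CPM in 0.1% FBS. Its libraries did not overlap, and its fitted log2 fold change was 5.15 ± 0.28, from a level in full serum near that of 3 counts (0.175 to 0.19 CPM). The orphan nuclear receptors NR4A1, NR4A2 and NR4A3, which are induced by cyclic AMP and work without a known ligand, rose together: NR4A1 by 1.88 ± 0.061, NR4A2 by 3.20 ± 0.089 and NR4A3 by 3.14 ± 0.16 on the log2 scale. CREM, whose short isoforms repress CREB targets, had 33.1, 33.3 and 31.8 CPM in 10% FBS and 70.5, 71 and 75.2 CPM in 0.1% FBS, and CITED2, which competes for the coactivator CBP, rose by 1.54 ± 0.073. In the kinase itself the regulatory subunit PRKAR1A rose from 452 ± 29.5 to 923 ± 13.1 CPM, while the catalytic subunit PRKACA fell from 168 ± 7.66 to 115 ± 1.84 CPM. The scaffold AKAP12 (1.22 ± 0.045) and the phosphodiesterase PDE3A (1.44 ± 0.079) rose. CREB3L2 and DUSP1 rose by 0.13 ± 0.046 and 0.77 ± 0.12. They were 2 of 4 list members with a full cyclic AMP response element (TGACGTCA) in the promoter window. The others, PDE4A and PDE7B, did not pass. The element was thus in 4 of 39 members with a promoter sequence (10.3%), beside 3.17% of the promoters of tested genes and 1.98% of all promoters of the table. It was in 2 of 22 higher and 0 of 5 lower members, so most genes that rose lack it in this window.

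Transcription factors tilted upward in total, largely through the C2H2 zinc-finger family and not in every family. Of 1256 tested genes that the deposited table annotates as transcription factors, 543 were higher (43.2%) and 236 lower (18.8%). Its C2H2 zinc-finger family alone counted 299 higher and 41 lower of 564. The ZBTB family (23 and 4 of 46), forkhead (13 and 5 of 23) and basic leucine zipper families (23 and 12 of 48) also leaned upward. Basic helix-loop-helix (20 and 14 of 56) and MYB families (10 and 8 of 26) were closer to even. HMG-box genes (9 and 16 of 37) leaned downward. Homeobox genes (17 and 29 of 102) had a small share higher (16.7%), but their share lower (28.4%) was also below that over all genes. With the length and GC offsets they were close to even, 20 higher and 21 lower. Of 482 zinc-finger genes with a ZNF or ZFP name, here called ZNF genes, 262 were higher and 28 lower, with 26 higher and 3 lower by at least 2-fold. On chromosome 19, where these genes lie in clusters, 154 of 239 ZNF genes were higher and 9 lower, with a median of 0.41, whereas the other 735 tested genes of that chromosome counted 89 higher and 373 lower, with a median of -0.24. ZNF genes elsewhere in the genome counted 108 higher and 19 lower of 243. With the length and GC offsets the chromosome 19 ZNF genes counted 134 higher and 7 lower, and the other genes of the chromosome 189 and 233. ZNF208 rose from 14.9 ± 2.3 to 41.2 ± 2.1 CPM. ZNF467 was among the few that fell, with 1.82, 2.22 and 1.79 CPM in 10% FBS and 0.534, 0.479 and 0.356 CPM in 0.1% FBS.

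**Figure D2:**
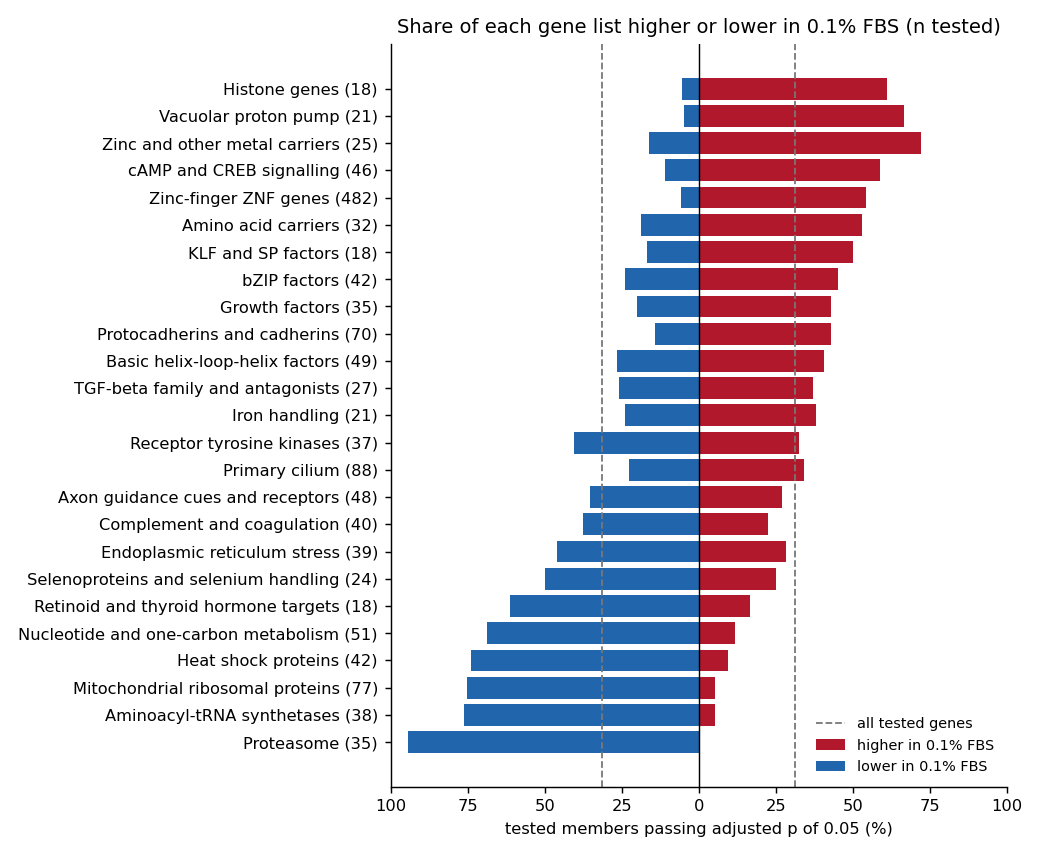
Share of tested members of 25 gene groups called higher (right) or lower (left) in 0.1% FBS, with the number tested in brackets. Dashed lines mark the shares over all tested genes, 31.2% higher and 31.4% lower. Histone, proton pump and metal carrier genes reach furthest to the right, and proteasome genes furthest to the left.

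Basic helix-loop-helix genes and their inhibitors moved in both directions (20 higher and 13 lower of 49). ID1, ID2 and ID3 encode proteins that lack a DNA-binding region and block other helix-loop-helix factors, and they are standard targets of bone morphogenetic protein (BMP) signalling. ID1, at chr20:31605283-31606515, had 64.3, 74.4 and 57.1 CPM in 10% FBS and 11.8, 10.2 and 8.61 CPM in 0.1% FBS. ID3 had 24.4, 30.4 and 22.2 CPM in 10% FBS and 4.39, 3.59 and 4.49 CPM in 0.1% FBS. ATOH8, another helix-loop-helix factor induced by BMP, had 4.82, 5.05 and 4.36 CPM in 10% FBS and 0.416, 0.18 and 0.214 CPM in 0.1% FBS. Every starved library lay below every library in full serum for these genes, and the log2 fold changes were -2.67 ± 0.11, -2.63 ± 0.14 and -4.08 ± 0.29. ID2 fell far less, with -0.86 ± 0.22. Other BMP feedback genes, picked for description after the values of ID1 and ID3 were seen, fell too: the inhibitory SMAD6 by 2.38 ± 0.31 (SE) and the decoy receptor BAMBI by 0.84 ± 0.091 on the log2 scale. SMAD6 also varied in full serum, with 5.05, 7.03 and 3.07 CPM. BMP4, a ligand of that pathway, rose from 2.06 ± 0.433 to 7.4 ± 0.339 CPM, as did FST, a secreted trap of activins and some BMPs, from 29.2 ± 3.27 to 101 ± 10.1 CPM. MXD1, which competes with MYC for its partner MAX, had 14, 11.7 and 14.6 CPM in 10% FBS and 49, 51.6 and 53 CPM in 0.1% FBS, with a log2 fold change of 1.93 ± 0.081.

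Clock genes showed a similar split. BHLHE40 and BHLHE41, repressors of the clock activators, rose by 1.05 ± 0.051 and 1.67 ± 0.14, and RORA, a nuclear receptor that drives BMAL1, by 1.89 ± 0.20. BMAL1 itself did not pass (-0.19 ± 0.09). The output factor DBP fell from 6.04 ± 0.688 to 2.3 ± 0.624 CPM. PER1 had 21.7 ± 1.45 CPM in 10% FBS and 22.6 ± 2.24 CPM in 0.1% FBS and CRY1 had 26.5 ± 0.832 CPM in 10% FBS and 26.8 ± 2.72 CPM in 0.1% FBS, with overlapping groups. Over the list 9 of 22 were higher and 3 lower (6 lower with the offsets).

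Other factor families were mixed, with single members that moved far. KLF and SP factors counted 9 higher and 3 lower of 18 (5 lower with the offsets), and KLF5, a factor of proliferating epithelia, had 44.5, 40.1 and 44.6 CPM in 10% FBS and 158, 146 and 158 CPM in 0.1% FBS. KLF4 fell, from 23.2 ± 1.81 to 14.4 ± 0.37 CPM. Forkhead factors counted 12 higher and 5 lower of 22, among them FOXO1 (up by 1.24 ± 0.09), which insulin signalling keeps out of the nucleus, and FOXD3 (up by 1.11 ± 0.13), a neural crest factor. SOX genes counted 1 higher and 5 lower of 12, with SOX18, a factor of vessel endothelium, at -1.71 ± 0.25. Of 42 basic leucine zipper factors 19 were higher and 10 lower. ATF3 rose by 1.38 ± 0.16, whereas CREB3L3 and JDP2 fell, with -1.92 ± 0.27 and -1.83 ± 0.23. MEF2C, a factor of muscle, neurons and neural crest, rose from 16.3 ± 1.98 to 59.6 ± 3.42 CPM, and HDAC9, a deacetylase that binds MEF2 factors, rose from 6.34 ± 1.26 to 20.4 ± 1.9 CPM. CITED1, a coactivator that binds CBP, rose from 0.686 ± 0.169 to 8.59 ± 1.18 CPM, although 39% of its exonic bases overlap another annotated gene. HOX genes counted 1 higher and 13 lower of 34, but 6 higher and 3 lower with the length and GC offsets, 7 lower with DESeq2 and 8 lower with library totals. Without replicate 1 or 2 of either group 7 or 8 were lower, so the count of that family rests on the scaling and on single libraries.

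**Figure D3:**
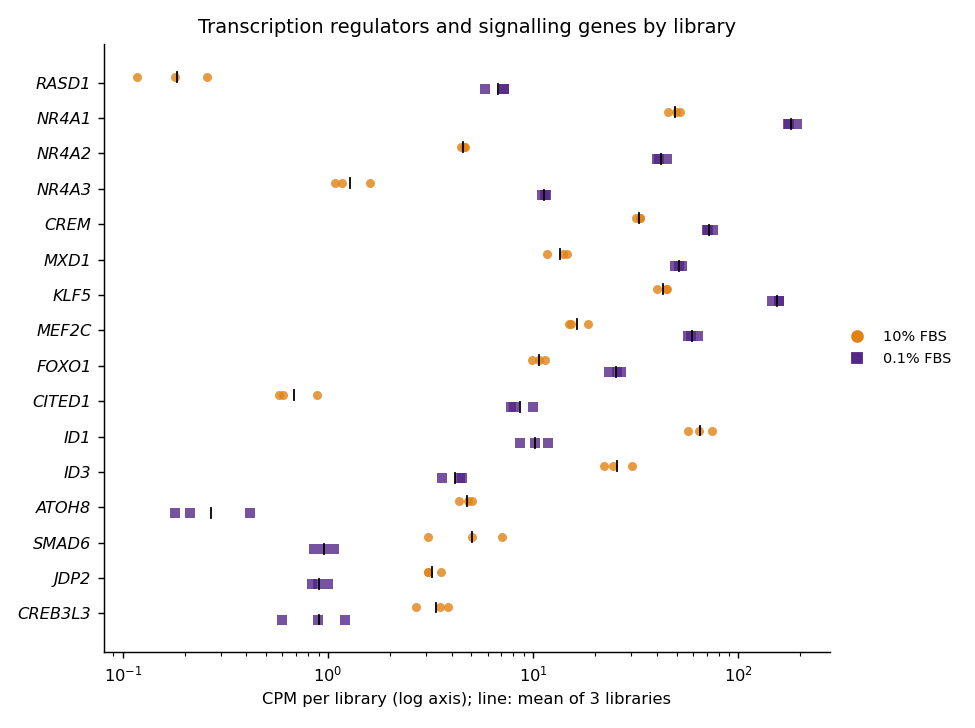
CPM in each library (log axis) of 16 transcription regulators and signalling genes; circles are 10% FBS, squares 0.1% FBS and lines group means. The groups do not overlap for any gene shown: RASD1 to CITED1 are higher and ID1 to CREB3L3 lower in 0.1% FBS.

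Secreted growth factors leaned upward, with 15 of 35 higher and 7 lower. HGF, the ligand of MET, had 0.117, 0.0601 and 0.256 CPM in 10% FBS and 2.26, 3.35 and 3.27 CPM in 0.1% FBS, a low level in both groups. FGFBP1, a carrier that frees fibroblast growth factors from the matrix, had 1.35, 1.26 and 1.34 CPM in 10% FBS and 8.79, 6.83 and 9.04 CPM in 0.1% FBS. The EGF-receptor ligands AREG, BTC, HBEGF and EGF were all called higher, with log2 fold changes of 1.64, 1.78, 0.61 and 0.60, while TGFA fell by 0.26. Within the VEGF family VEGFA rose (0.71 ± 0.054), while VEGFC (-0.85 ± 0.089) and PGF (-1.16 ± 0.24) fell. FGF13, which acts inside the cell, fell from 16.5 ± 0.581 to 6.98 ± 0.875 CPM. GDF15, a stress-induced member of the TGF-beta family that suppresses appetite, had 2.17, 3.91 and 2.24 CPM in 10% FBS and 31, 33.4 and 33.7 CPM in 0.1% FBS. That is a log2 fold change of 3.55 ± 0.14, and leaving out any 1 library kept it above 3 on that scale.

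Cytokines divided by member rather than moving as a class (8 of 24 higher, 4 lower). IL24, a cytokine of the IL-10 family first described in melanoma cells, had 2.82, 3.13 and 3.14 CPM in 10% FBS and 38.3, 37.9 and 40.01 CPM in 0.1% FBS. IL16 had 1.76, 2.4 and 1.86 CPM in 10% FBS and 22, 22.5 and 23.6 CPM in 0.1% FBS. Its exons overlap those of STARD5 on the opposite strand over 4351 of 12094 bases, and STARD5 itself had 1.08 ± 0.12 CPM in 10% FBS and 0.485 ± 0.296 CPM in 0.1% FBS. LIF rose from 47.6 ± 4.4 to 87.5 ± 3.27 CPM and TNFSF9, the ligand of 4-1BB, from 10.4 ± 1.73 to 28.1 ± 3.34 CPM. CXCL1, a neutrophil attractant, fell from 2.63 ± 0.267 to 0.547 ± 0.0604 CPM, and the alarmin IL1A fell from 9.47 ± 0.647 to 3.14 ± 0.558 CPM. CXCL8, close to CXCL1 in function, had 7.05 ± 1.01 CPM in 10% FBS and 7.2 ± 1.07 CPM in 0.1% FBS with overlapping groups.

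In the WNT list 15 of 32 were higher and 10 lower. DKK1, a secreted WNT inhibitor, had 23.5, 20.3 and 18.3 CPM in 10% FBS and 3.56, 4.85 and 3.63 CPM in 0.1% FBS, a log2 fold change of -2.36 ± 0.14 (SE), while the ligand WNT7B rose by 1.84 ± 0.18. Axon guidance genes counted 13 higher and 17 lower of 48: the netrin receptor UNC5C fell (-2.09 ± 0.13), SEMA6B fell (-1.74 ± 0.11) and SEMA3D rose (1.45 ± 0.11). In the Hedgehog list the effector GLI2 fell from 17.4 ± 1.26 to 7.76 ± 1.6 CPM and the transducer SMO from 24.6 ± 1.46 to 14.9 ± 1.37 CPM, and 3 of 14 members were higher (1 with the offsets) and 5 lower. Those higher were HHAT (0.68 ± 0.13), PTCH1 (0.27 ± 0.084) and DISP1 (0.25 ± 0.098). Primary cilium genes, which quiescent cells are known to use, counted 30 higher and 20 lower of 88, with 1 higher and 0 lower by at least 2-fold.

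Of 40 complement and coagulation genes, which include secreted protease inhibitors, 9 were higher and 15 lower. SERPINA3, the acute-phase inhibitor of chymotrypsin, had 503, 504 and 493 CPM in 10% FBS and 98.7, 93.3 and 88.1 CPM in 0.1% FBS, and 32% of its exonic bases overlap another annotated gene. SERPINA5, the protein C inhibitor, fell in the same direction, from 27.4 ± 1.41 to 8.26 ± 1.13 CPM. CD55, which protects cells from complement, had 238, 244 and 236 CPM in 10% FBS and 786, 827 and 802 CPM in 0.1% FBS, a rise of 1.75 ± 0.039, with an adjusted p of 8.3e-14 (edgeR's quasi-likelihood test, Benjamini-Hochberg). The complement component C3 fell from 53 ± 1.77 to 35.7 ± 1.06 CPM and PLAT, the tissue plasminogen activator, from 103 ± 2.47 to 58.6 ± 0.429 CPM. Among the ADAM and ADAMTS proteases ADAMTS9 rose (1.72 ± 0.14) and ADAMTS16 fell (-1.79 ± 0.24), with 6 of 27 higher and 9 lower.

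Receptor tyrosine kinases divided almost evenly, 12 higher and 15 lower of 37. AXL, the receptor of GAS6 and a marker of drug-tolerant melanoma, had 134, 136 and 130.3 CPM in 10% FBS and 23.2, 19.3 and 19.4 CPM in 0.1% FBS. The starved libraries lay far below, with a log2 fold change of -2.69 ± 0.067. ALK rose from 0.653 ± 0.278 to 5.28 ± 0.112 CPM and KDR, a receptor for VEGFA, from 0.468 ± 0.0518 to 2.61 ± 0.251 CPM, both from low levels. EPHB1 and FGFR3 fell, with -2.46 ± 0.27 and -1.17 ± 0.13. EGFR rose from 31.4 ± 2.14 to 50.1 ± 1.59 CPM and ERBB3 fell from 333 ± 10.5 to 267 ± 9 CPM. Insulin and PI3K adaptors leaned upward, with 15 of 32 higher and 7 lower (4 lower without replicate 2 of 10% FBS), and IRS2, an adaptor repressed by insulin through FOXO factors, rose from 105 ± 8.77 to 179.7 ± 11.4 CPM. SESN1, an inhibitor of mTORC1, rose from 14.6 ± 1.87 to 37 ± 2.04 CPM. TXNIP and ARRDC4, a pair of arrestin-like brakes on glucose uptake, rose by 1.68 ± 0.17 and 1.19 ± 0.14.

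Selenoprotein genes fell more often than they rose, and those that fell most share the position of the selenocysteine codon in the gene. Selenocysteine is encoded by UGA, which is otherwise a stop codon, and is inserted with the help of a hairpin in the 3' end of the messenger. When selenium is short, messengers with an exon junction well downstream of the UGA can be degraded by nonsense-mediated decay. The codons and their surroundings are shown for 3 genes that fell and 3 that did not, as 33 bases of GENCODE 29 transcripts with the genomic T for U, and with the selenocysteine codon in capitals.
GPX1: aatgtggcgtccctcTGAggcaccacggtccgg
SELENOW: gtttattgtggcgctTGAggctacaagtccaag
GPX3: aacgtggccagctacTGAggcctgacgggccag
TXNRD1: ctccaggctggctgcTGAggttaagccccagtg
SEPHS2: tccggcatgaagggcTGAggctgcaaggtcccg
SELENOS: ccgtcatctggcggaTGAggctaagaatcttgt
GPX1, the abundant cytosolic glutathione peroxidase at chr3:49357171-49358600, had 119, 137 and 123 CPM in 10% FBS and 44, 45.6 and 46 CPM in 0.1% FBS. SELENOW, a small muscle and brain selenoprotein, had 42.6, 46.6 and 42 CPM in 10% FBS and 15, 13.7 and 14.3 CPM in 0.1% FBS, and the secreted peroxidase GPX3 had 19.7, 21.9 and 20.4 CPM in 10% FBS and 7.3, 6.11 and 5.91 CPM in 0.1% FBS. In each of the 3 genes the starved libraries lay below all libraries in full serum, and the codon lies 105, 243 and 240 bases before the last exon junction of the transcript used. GPX4, the peroxidase that protects membrane lipids, fell less (-0.69 ± 0.068). TXNRD1, a thioredoxin reductase whose codon lies in the last exon, had 362, 335 and 368 CPM in 10% FBS and 334, 344 and 328 CPM in 0.1% FBS, with overlapping groups. SEPHS2, which makes the selenium donor and has a single coding exon here, rose from 162 ± 4.81 to 184 ± 8.61 CPM.

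Of 9 tested selenoprotein genes with a junction at least 50 bases after the codon, 8 were lower and 0 higher by edgeR's quasi-likelihood test, with a median log2 fold change of -0.91. All 9 had a log2 fold change below 0, so none was higher at an unadjusted p under 0.05 either. SELENOF, with 148 ± 6.49 CPM in 10% FBS and 146 ± 1.31 CPM in 0.1% FBS, was the member that did not pass. Of the 9 without such a junction 3 were higher and 2 lower, with a median of -0.02. TXNRD2 and MSRB1 were the 2 lower ones, and for TXNRD2 6 of 9 annotated transcripts carry a downstream junction, as does 1 of 2 for GPX1. The grouping by junction was made after the values were seen and is given without a test. With the length and GC offsets the log2 fold changes of GPX1, SELENOW and GPX3 were -1.13, -1.47 and -1.42. In caMKL1 against control vector, which uses other libraries, the same genes had 0.02, 0.44 and 1.29. LRP8, a receptor that takes up the selenium carrier SELENOP, rose from 187 ± 3.83 to 295 ± 16.2 CPM. Over the whole list of selenoproteins and selenium handling 6 of 24 were higher and 12 lower.

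**Figure D4:**
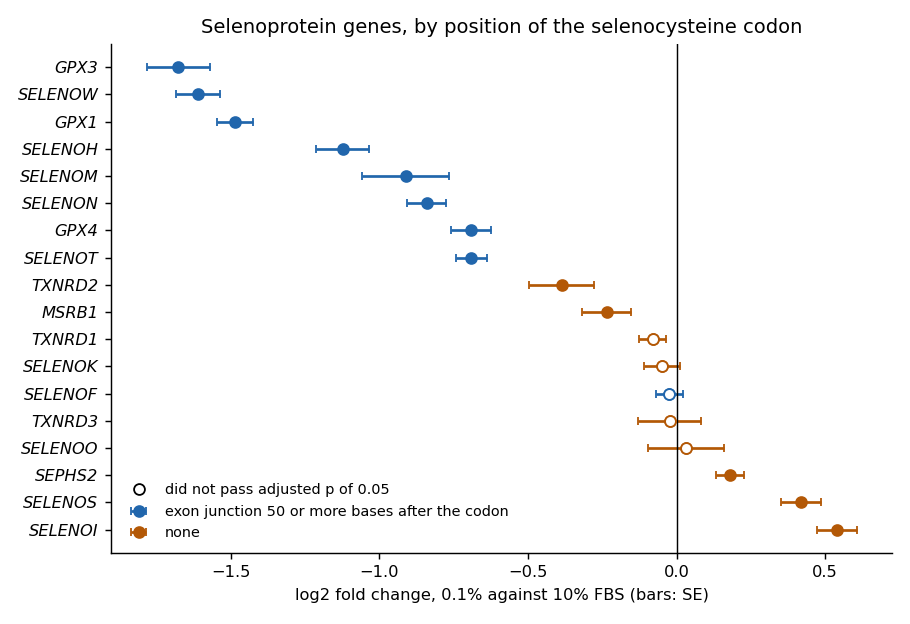
Log2 fold change (point) with SE (bar) of 18 tested selenoprotein genes; blue marks genes with an exon junction at least 50 bases after the selenocysteine codon, brown those without, and open points did not pass. GPX3, SELENOW and GPX1 lie lowest, and SELENOF is the blue gene near 0.

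The receptor that brings iron into cells rose, while the iron store ferritin fell. TFRC, the transferrin receptor at chr3:196027183-196082189, had 305, 273 and 308 CPM in 10% FBS and 776, 754 and 777 CPM in 0.1% FBS, a rise of 1.38 ± 0.047. FTL, the light chain of ferritin, which stores iron, fell from 927 ± 47.5 to 621 ± 21.1 CPM. FTH1, the heavy chain, fell from 1851 ± 72.5 to 1351 ± 73.9 CPM, but 62% of its exonic bases overlap another annotated gene. The ferric reductase CYBRD1 rose by 0.99 ± 0.069 and transferrin itself, TF, by 1.04 ± 0.091. In all 8 of 21 members were higher and 5 lower.

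The metallothioneins MT1X and MT2A fell, while zinc carriers moved in both directions. MT1X, a metallothionein that binds zinc and copper, fell from 5.91 ± 0.522 to 2.42 ± 0.553 CPM, and MT2A, the more abundant one, from 78.8 ± 6.93 to 58.1 ± 3 CPM. The zinc exporter SLC30A1 rose from 77.7 ± 7.58 to 123 ± 6.42 CPM, and SLC39A10, an importer, from 45.9 ± 2.84 to 66.1 ± 1.06 CPM. The carriers SLC39A11 and SLC39A4 fell, with log2 fold changes of -0.93 ± 0.074 and -0.89 ± 0.23. Among 17 members 10 were higher and 6 lower. Over the wider set of metal carriers 18 of 25 were higher and 4 lower. The MT1X promoter is shown because it carries 4 cores of the metal response element, TGCGCNC or TGCACNC on either strand, at -150, -122, -78 and -53 from the start; RefSeq GRCh38.p14, chr16:56682270-56682469, + strand, cores in capitals.
MT1X: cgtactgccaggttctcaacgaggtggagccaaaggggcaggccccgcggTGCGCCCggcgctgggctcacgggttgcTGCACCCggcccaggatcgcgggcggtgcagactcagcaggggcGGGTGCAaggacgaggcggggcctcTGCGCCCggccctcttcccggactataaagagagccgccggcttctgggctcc
The G form of the core occurs in 19.97% and the A form in 11.9% of the 27305 promoter windows of the table, and in 31.2% and 11.4% of those of tested genes, so single matches are common. The SLC30A1 promoter window also holds the A form.

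Retinoid and thyroid hormone targets were mostly lower, with 11 of 18 lower and 3 higher. STRA6, the cell-surface receptor for retinol bound to its plasma carrier, had 50.4, 59.9 and 50.6 CPM in 10% FBS and 21.1, 23.5 and 20.9 CPM in 0.1% FBS. CYP26B1, which degrades retinoic acid, fell from 6.89 ± 0.375 to 3.26 ± 0.876 CPM, and TGM2, a transglutaminase induced by retinoic acid, from 66.8 ± 8.41 to 26.4 ± 1.61 CPM. The receptors RARA, RARG and RXRA fell, with log2 fold changes of -0.79, -0.67 and -0.19. RXRG rose instead (1.54 ± 0.13), as did RDH10, which makes retinal from retinol (0.86 ± 0.086). RARB (0.16 ± 0.13) and CRABP2 (-0.17 ± 0.27) did not pass. HR, a corepressor induced by thyroid hormone, fell from 61.2 ± 5.69 to 27.6 ± 1.74 CPM, while THRB rose (0.50 ± 0.087). The thyroid hormone members alone counted 1 higher and 2 lower of 4.

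Lipid and fuel genes were mixed. ACSL1, which activates long-chain fatty acids, had 62.2, 58.5 and 58.3 CPM in 10% FBS and 247, 259 and 249 CPM in 0.1% FBS. PDK4, which shuts pyruvate out of the mitochondrion, rose from 21.6 ± 1.11 to 55.7 ± 3.7 CPM. ANGPTL4, a PPAR target that inhibits lipoprotein lipase, fell from 8.66 ± 1.25 to 2.57 ± 0.558 CPM, and UCP2 fell from 13.2 ± 1.35 to 6.01 ± 0.961 CPM, while CPT1A had 73.5 ± 3.35 CPM in 10% FBS and 72.6 ± 0.894 CPM in 0.1% FBS with overlapping groups. Of 45 fatty acid oxidation and PPAR genes 11 were higher and 22 lower. Of 32 genes of the tricarboxylic acid cycle 19 were lower and 4 higher (8 with the offsets), and ACLY, which sends citrate into lipid synthesis, rose from 518 ± 6.61 to 935 ± 23.8 CPM.

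Most genes of nucleotide synthesis, aminoacyl-tRNA synthesis and the mitochondrial ribosome were lower, few of them by 2-fold. Nucleotide and one-carbon genes counted 35 lower and 6 higher of 51. TK1, the thymidine salvage kinase of dividing cells, had 74.2, 81.9 and 67.2 CPM in 10% FBS and 29.9, 27.1 and 28.3 CPM in 0.1% FBS, and PHGDH, the first enzyme of serine synthesis, had 161, 178 and 154 CPM in 10% FBS and 67.6, 68.3 and 60.8 CPM in 0.1% FBS. RRM2B, the ribonucleotide reductase subunit of non-dividing cells, went up instead, from 56.1 ± 4.4 to 132 ± 5.54 CPM. Cytosolic aminoacyl-tRNA synthetases counted 18 lower and 2 higher of 21 and mitochondrial ones 11 lower and 0 higher of 17 (together 29 and 2 of 38, or 26 and 1 with the offsets), with YARS1 at -0.83 ± 0.042 and MARS1 at -0.80 ± 0.048. Mitochondrial ribosomal proteins counted 58 lower and 4 higher of 77 (48 and 7 with the offsets). ODC1, which starts polyamine synthesis, fell from 93.8 ± 2.86 to 55.8 ± 1.47 CPM, and SAT1, which breaks polyamines down, rose from 50.7 ± 1.89 to 81.3 ± 3.19 CPM.

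Of 35 proteasome subunits 33 were lower and 0 higher by edgeR's quasi-likelihood test, and 29 were lower with the length and GC offsets. The median change was -0.36 on the log2 scale and PSMB6, a catalytic subunit, had the lowest, -0.95 ± 0.057. All 35 had a negative value, so none was higher at an unadjusted p under 0.05, and DESeq2 called 32 lower and 0 higher. Heat shock proteins counted 31 lower and 4 higher of 42: the constitutive chaperone HSPA8 fell from 3879 ± 55.4 to 2608 ± 43.1 CPM and HSP90AA1 from 2338 ± 119.5 to 1593 ± 31.1 CPM, while HSPA4L rose (0.86 ± 0.085). NRF2 targets counted 18 lower and 6 higher of 32 (10 higher with the offsets). NQO1, a quinone reductase, fell from 534 ± 23.3 to 290.2 ± 6.44 CPM and ABCC3, an exporter of conjugates, from 14.4 ± 0.617 to 3.06 ± 0.468 CPM, while the cystine carrier SLC7A11 rose from 113 ± 12.6 to 225 ± 5.1 CPM.

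Genes of the endoplasmic reticulum stress response divided, with 18 lower and 11 higher of 39. The chaperone HSPA5, at chr9:125234853-125241330, had 1208, 1241 and 1267 CPM in 10% FBS and 722, 723 and 705 CPM in 0.1% FBS. PDIA4 and HYOU1, which fold proteins in the same compartment, fell by 0.89 ± 0.042 and 0.80 ± 0.045 on the log2 scale, while EDEM1, which sends misfolded proteins for disposal, rose from 172 ± 9.64 to 306 ± 3.97 CPM and DNAJB9 from 15.6 ± 0.756 to 30.7 ± 2.18 CPM. The promoters of HSPA5 and CRELD2 are shown because they hold the ER stress element, CCAAT and CCACG with 9 bases of any kind between them (capitals, on the minus orientation in CRELD2), read from RefSeq GRCh38.p14 at chr9:125241344-125241543, - strand, and chr22:49918434-49918633, + strand.
HSPA5: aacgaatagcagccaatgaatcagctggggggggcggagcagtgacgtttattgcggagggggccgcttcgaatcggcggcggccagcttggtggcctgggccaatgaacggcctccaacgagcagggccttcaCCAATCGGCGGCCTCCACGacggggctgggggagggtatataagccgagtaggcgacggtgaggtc
CRELD2: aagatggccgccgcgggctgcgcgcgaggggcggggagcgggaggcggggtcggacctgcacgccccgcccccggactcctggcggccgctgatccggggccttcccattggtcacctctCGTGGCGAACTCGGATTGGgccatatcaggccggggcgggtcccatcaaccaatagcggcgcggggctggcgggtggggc
The element was found in 22 of 27305 promoter windows (0.0806%), in 14 of the 10713 of tested genes (0.131%) and in 6 of 36 of this list, CALR, CANX, CRELD2, HSP90B1, HSPA5 and XBP1. It was in 5 of 16 members that fell and 0 of 11 that rose. CRELD2 itself fell from 21.4 ± 2.48 to 14.6 ± 1.69 CPM and XBP1 from 71.3 ± 3.93 to 55.2 ± 1.96 CPM. A match describes letters in a window, not binding.

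Carriers and pumps of the membrane leaned upward. Of 228 solute carriers 100 were higher (43.9%) and 46 lower (20.2%), with 13 higher and 3 lower by at least 2-fold. Amino acid carriers counted 17 higher and 6 lower of 32. SLC7A8, an exchanger of neutral amino acids, had 1.17, 1.14 and 1.09 CPM in 10% FBS and 8.9, 9.7 and 9.18 CPM in 0.1% FBS. Its close relative SLC7A5 had 521, 548 and 460.0 CPM in 10% FBS and 275, 275 and 263 CPM in 0.1% FBS, and the shared heavy chain SLC3A2 fell with it, from 170.1 ± 12.4 to 105 ± 2.2 CPM. SLC1A5, a glutamine carrier, fell from 255 ± 15.1 to 157 ± 3.13 CPM, while SLC1A4 and SLC38A2, which carry small neutral amino acids, rose by 0.99 ± 0.063 and 0.66 ± 0.054. The groups did not overlap for any of these carriers.

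Sugar, carboxylate and ion carriers gave further examples. SLC16A6, a monocarboxylate carrier, had 1.7, 2.4 and 2.82 CPM in 10% FBS and 16.1, 16.7 and 17.7 CPM in 0.1% FBS, and 8 of 13 carriers of that kind were higher and 2 lower. SLC5A3 and SLC2A13, which take up myo-inositol with sodium or protons, rose by 1.20 ± 0.084 and 1.19 ± 0.08, and the glucose carrier SLC2A3 by 0.97 ± 0.052. SLCO4C1, a carrier of organic anions, had 6.11, 4.93 and 5.44 CPM in 10% FBS and 24, 26.6 and 23.9 CPM in 0.1% FBS. SLC24A3, an exchanger of sodium for calcium and potassium, rose from 2.88 ± 0.477 to 18 ± 0.922 CPM, and ATP2B1, which pumps calcium out of the cell, from 148 ± 16.2 to 324 ± 2.85 CPM. The lipid carrier ABCA12 rose from 0.263 ± 0.137 to 2.02 ± 0.0213 CPM, at low levels.

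The vacuolar proton pump, which acidifies lysosomes, was higher in 14 of 21 subunits and lower in 1, ATP6V0C (17 and 0 with the offsets). ATP6V0A4, a subunit best known from kidney and inner ear, at chr7:138706294-138799560, had 8.16, 8.83 and 6.92 CPM in 10% FBS and 94.9, 97.8 and 90.4 CPM in 0.1% FBS. It rose by 3.56 ± 0.078, and the other tested members stood between -0.40 and 0.87 on the log2 scale. Other proteins of the endosome and lysosome membrane rose with it: the cation channel MCOLN3 by 1.85 ± 0.12 and the chloride exchanger CLCN6 by 1.26 ± 0.061. Potassium channels counted 9 higher and 9 lower of 34, with KCNJ2, an inward rectifier, up from 2.15 ± 0.151 to 10.6 ± 1.39 CPM. Among other channels ANO4 rose from 2.46 ± 0.202 to 14.3 ± 1.42 CPM and the epithelial sodium channel subunit SCNN1A fell from 4.25 ± 0.517 to 1.13 ± 0.391 CPM, and 21 of 59 were higher and 10 lower.

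**Figure D5:**
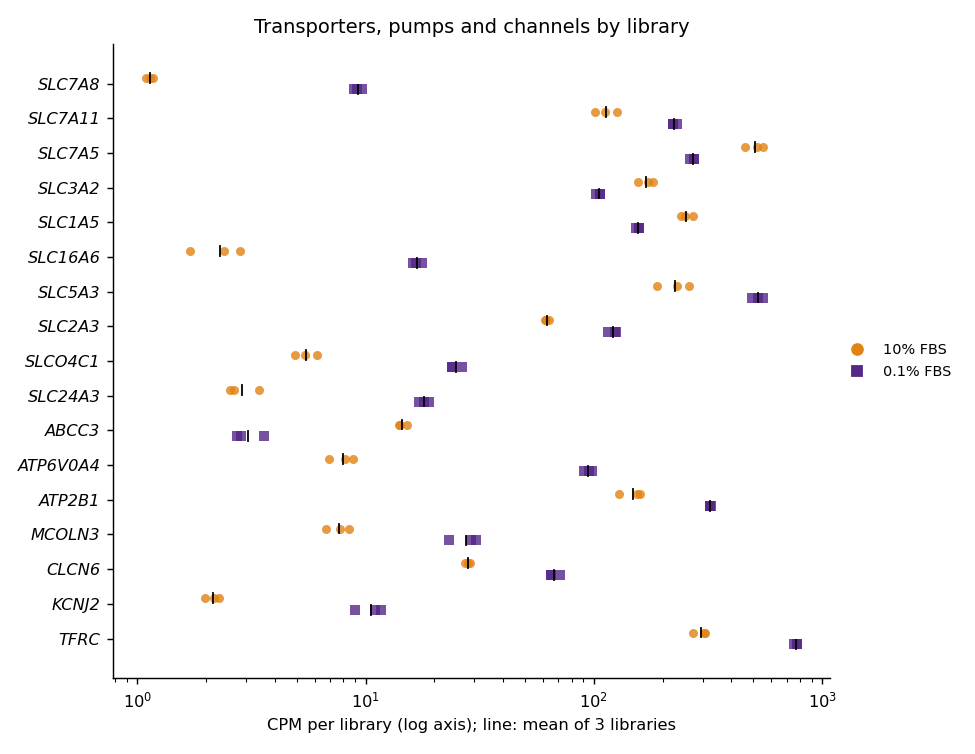
CPM in each library (log axis) of 17 transporters, pumps and channels; circles are 10% FBS, squares 0.1% FBS and lines group means. SLC7A5, SLC3A2, SLC1A5 and ABCC3 are lower in 0.1% FBS and the other genes higher, with no overlap of groups for any gene shown.

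Some structural families stood apart from these pathways. Histone genes that passed the count filter were 11 higher and 1 lower of 18 (13 and 0 with the offsets), with H3C6 at 1.17, 1.08 and 1.15 CPM in 10% FBS and 7.54, 7.25 and 7.33 CPM in 0.1% FBS and H2BC21 at 2.17, 2.28 and 2.11 CPM in 10% FBS and 12, 12.3 and 12.8 CPM in 0.1% FBS. Most histone messengers of dividing cells lack a poly(A) tail, so oligo(dT) libraries count only polyadenylated forms, and 18 of 70 family genes were tested. Cadherins and protocadherins counted 30 higher and 10 lower of 70, with CDH19, a cadherin of the neural crest lineage, at 37.1, 32.3 and 36.4 CPM in 10% FBS and 100.4, 102 and 100.5 CPM in 0.1% FBS. Nucleoporins counted 4 higher and 14 lower of 30, and 1 higher and 22 lower with the offsets.

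Beside starvation stands the caMKL1 experiment, which shares no library with it and for which no serum level is recorded here. Its log2 fold changes for single genes are given without SE or call. There 1087 of 13558 tested genes rose (8.02%) and 195 fell (1.44%) by at least 2-fold against the control vector. Among 13014 genes tested in both, 559 rose by at least 2-fold in starvation and 844 with caMKL1, and 136 did both, 24.3% of the starvation and 16.1% of the caMKL1 genes. A further 69 genes fell in starvation and rose with caMKL1 (20% of 345 and 8.18% of 844), 15 did the reverse (2.68% of 559 and 9.04% of 166), and 30 fell in both (8.70% and 18.1%). IL24 was higher in both, with 3.67 ± 0.095 in starvation and 3.22 with caMKL1, and so was PRUNE2 (7.03). NR4A2 had -0.64 with caMKL1, and ID1 and ID3 had 0.55 and 0.75, each opposite in sign to starvation. ITGA10, KCNJ2 and ATP6V0A4, all higher in starvation, had -1.19, -2.81 and -1.29, and KRT80 and ABCC3, both lower in starvation, had 1.22 and 2.49. TFRC had 0.16 there.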

How the data were processed

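Poly(A) RNA of A375 cells was sequenced after Trizol extraction and NEBNext Ultra library preparation, per the labels' protocols. The submitters' processing notes name the build GRCh38 and, with no role or order, the tools DESeq2, RSEM, StringTie 1.3.1, HISAT2 2.2.4 and Bowtie2 2.2.8. Whether counting used strand is not given in the sources used here. The authors deposited whole-number counts per gene and library, which may be rounded RSEM estimates. Their FPKM values, also deposited, are behind no value given here. The authors' log2 fold changes and p-values (with adjusted p-values) were compared with the fits made here.

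Counts of the 6 starvation libraries were filtered with filterByExpr, scaled with TMM and tested with edgeR 4.0.16 (glmQLFit, glmQLFTest) in R 4.3.3, with Benjamini-Hochberg adjustment over all 13307 tested genes and a threshold of 0.05. The SE was taken as the absolute log2 fold change over the root of the F statistic. The caMKL1 and control vector libraries were fitted apart. Alternatives were other scalings, filters, DESeq2 1.42.0, a replicate block and leaving out each library; offsets for transcript length and GC content were added after seeing the data. The scripts were tested on simulated data.

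The members and the 43 gene lists and 25 families were chosen with earlier results of these data known. Named genes were the anchors of each list, up to 3 rising and 3 falling members per list or family (8 and 8 for solute carriers, ZNF genes and transcription factors in the lists) whose group ranges are separate and whose mean reaches 1 CPM, 2 rising and 2 falling genes in each of 5 expression bins, and genes of an earlier account. Some partners and counterexamples were chosen after their values were seen, among them AREG, BTC, EGF, AKAP12, PDE3A, PRKAR1A, MEF2C, BAMBI, CRY1, RXRA, SLC3A2, SLC1A4, SLC38A2, STARD5, CRELD2, SELENOF, SELENOS and SEPHS2. Of 500 named genes 228 share exonic bases with another gene and 63 share at least 10%. A few withheld genes and groups are not reported here.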

Additional observations from a re-analysis of the deposited data

How the results depend on the processing

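Under DESeq2 size factors, library totals, either count filter, DESeq2, the replicate block or leaving out a library, no named gene that had passed changed sign. None that had not passed came to pass in the opposite direction. Of 493 named genes, between 476 and 483 kept their side of the threshold without 1 library, and 483 with DESeq2. Those that passed also kept their direction. Direction was not compared for genes that passed in neither fit. Without 1 library the number of changed genes ranged from 7463 to 8412 (3701 to 4137 higher, 3762 to 4275 lower), at least 2-fold changes from 1000 to 1120 (625 to 708 higher, 351 to 412 lower) and changes past 1.5-fold from 1198 to 1484 (723 to 890 higher, 472 to 594 lower). TXNRD1 passed without replicate 2 of 10% FBS (-0.12) and with the offsets (-0.15), and PER1 with the offsets (0.20). With no filter on low counts the lowest expression bin had a median absolute change of 1.35 and 4.13% of its genes called. With no minimum fold the overlaps with caMKL1 became 1631 genes higher in both, 916 higher in starvation and lower with caMKL1, 859 the reverse and 2092 lower in both.

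Same-numbered replicates of the groups had correlations of -0.0166, 0.0355 and 0.108, so the numbers are not taken as pairs. With the replicate block 491 of 493 named genes kept their call and 2 more passed, and 1 of 136 list counts moved by over 1.5 times.

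Offsets for length and GC kept 446 named genes and reversed 12, whose log2 fold changes became: CLOCK -0.10, IGF1R -0.0093, PIK3R1 -0.0063, DDIT4 0.23, ACADVL 0.0004, PPAT -0.16, FOXD1 0.28, ETV1 -0.11, ETV4 0.28, SLC39A7 0.0263, RANBP2 -0.0463 and NUP58 -0.0558. DDIT4 and FOXD1 share 41.16% and 16.16% of their exonic bases with an antisense gene. The offsets moved 21 of 136 list counts by over 1.5 times. The cause was not tested. The authors' deposited table has 2483 genes higher and 3194 lower at an adjusted p under 0.05, 5629 genes passed in both analyses, and 14 of them had opposite signs.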
